A study of Homo sapiens with 4 samples.

Results

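SP5 and 9 other genes of the Wnt response were followed in AGS cells after knockdown of MFAP2, a microfibril protein of the extracellular matrix. These 10 genes were taken by name from a table of 47251 genes: SP5, AXIN2, LGR5, RNF43, ZNRF3, NKD1, TCF7, LEF1, MYC and CTNNB1. SP5 was chosen by its rise in these same libraries, so its values are given as a description with no test, whereas the others were taken as known targets or, for CTNNB1, as the mediator itself, in order to see whether SP5 moved alone. AGS is a human epithelial line derived from an adenocarcinoma of the stomach. RNA was sequenced from 4 libraries: 2 of knockdown cells with an shRNA to MFAP2 (called sh-MFAP2, replicates 1 and 2) and 2 of cells with a scrambled shRNA (called control, replicates 1 and 2). Both lines were made by lentiviral infection, were selected with puromycin and carried green fluorescent protein, per the study's supplementary methods (the labels speak of transfection). A single hairpin, named sh1 in the labels, was used, so that an effect of that hairpin, of the loss of MFAP2 and of the selected line cannot be told apart. Nothing says that the replicates came from separate cultures, so the p-values measure only the spread between these libraries, which may be technical. Values are FPKM, that is fragments per kilobase of transcript scaled to the size of the library, and can be compared between genes because they are scaled by length. A pair of values is given in the order replicate 1 and replicate 2, and in the form A against B the knockdown pair comes before the control pair.

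Wnt ligands bind Frizzled receptors and the LRP5 and LRP6 co-receptors, which stops a complex of AXIN, APC, GSK3 and CK1 from marking beta-catenin, the product of CTNNB1, for degradation. Beta-catenin then enters the nucleus and activates genes bound by TCF and LEF factors. Many of these genes encode feedback inhibitors: AXIN2 rebuilds the destruction complex, NKD1 binds Dishevelled, and RNF43 and ZNRF3 are ubiquitin ligases that remove Frizzled from the membrane, an action opposed by R-spondins through LGR5. In the stomach and intestine LGR5 marks stem cells that depend on this pathway. SP5 is a zinc finger factor of the SP family and a direct target of beta-catenin in many tissues. AGS cells are known to carry an activating mutation of CTNNB1, so that the pathway runs without ligand.

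The promoter of SP5 is shown first, since the question is whether this gene moved with genes that share its regulator, and 2 promoters of other members are shown for comparison. Sequences are from RefSeq on GRCh38.p14 and span 300 bases around the annotated start. Promoters were matched for 5 of the 10 members (SP5, CTNNB1, LEF1, TCF7 and RNF43), 7 in all. Capitals mark CTTTG, the core of the TCF and LEF motif, or CAAAG, the same letters on the other strand.
SP5 promoter, chr2:170715087-170715386, plus strand: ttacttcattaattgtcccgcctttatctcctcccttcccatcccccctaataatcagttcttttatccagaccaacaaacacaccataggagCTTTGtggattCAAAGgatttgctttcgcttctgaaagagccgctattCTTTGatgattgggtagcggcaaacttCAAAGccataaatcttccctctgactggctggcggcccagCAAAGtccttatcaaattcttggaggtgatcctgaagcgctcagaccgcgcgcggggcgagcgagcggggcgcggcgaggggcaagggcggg
TCF7 promoter, chr5:134123368-134123667, plus strand: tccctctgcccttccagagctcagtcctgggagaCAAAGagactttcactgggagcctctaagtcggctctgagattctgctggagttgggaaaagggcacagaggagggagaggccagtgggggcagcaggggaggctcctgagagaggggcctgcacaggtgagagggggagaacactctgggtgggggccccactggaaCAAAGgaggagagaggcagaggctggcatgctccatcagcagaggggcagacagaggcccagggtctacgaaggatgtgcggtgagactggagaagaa
RNF43 promoter, chr17:58417485-58417784, minus strand: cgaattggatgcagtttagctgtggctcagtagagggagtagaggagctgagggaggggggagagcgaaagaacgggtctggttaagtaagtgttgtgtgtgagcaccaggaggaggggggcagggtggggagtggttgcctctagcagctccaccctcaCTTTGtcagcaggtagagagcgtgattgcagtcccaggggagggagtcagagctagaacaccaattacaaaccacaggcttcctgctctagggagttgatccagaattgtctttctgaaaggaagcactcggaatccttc

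The SP5 window held the core 5 times, with the first base of each match 157, 146, 109, 82 and 42 bases before the start. At 109 bases it was extended to CTTTGAT. At least 1 core on either strand was found in 47.5% of the 35116 promoters in the table, but 5 or more were found in 65 promoters (0.185%), and CTTTGAT was found in 2.62%. The second TCF7 promoter held 2 cores, at 216 and 48 bases, the latter within CTTTGTT on the minus strand, a word found in 5.20% of promoters and overlapping the core. The RNF43 window printed above held 1 core at 90 bases, the other RNF43 window held 1, that of LEF1 held 1, and those of CTNNB1 and the first TCF7 promoter held 0. These are matches of letters and were not tied to binding in these cells.

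The epithelial identity of the line was seen in KRT8 (690 to 803 FPKM), KRT18 (501 to 774 FPKM), KRT19 (217 to 303 FPKM) and EPCAM (193 to 210 FPKM) in every library. CDH1, the epithelial cadherin, was low, at 0.584 and 0.853 FPKM after knockdown and 1.25 and 1.15 FPKM in the controls, and CLDN4 was at 47.1 FPKM in sh-MFAP2 replicate 1 but at most 0.551 FPKM in the others. Markers of leukocytes and endothelium (PTPRC, PECAM1) were at or below 0.0298 FPKM, and of the fibroblast markers COL3A1 was at or below 0.00786 FPKM whereas COL1A1 was at 2.27 and 2.07 FPKM after knockdown and 4.36 and 4.92 FPKM in the controls (adjusted p = 0.221 in limma). CDH1 and COL1A1 were thus lower in both knockdown libraries than in both controls, as were 31.4% of all genes tested. CDH1 was below the filter given below and had no limma test. The part of both genes in the results below was not tested. MFAP2 itself stood at 0 in both knockdown libraries and at 0.0116 and 0.0138 FPKM in controls, at or about the floor of 3 reads. The knockdown could thus not be read from these values. The paper reports that it checked its knockdown line by western blot and quantitative PCR. Steps between low values implied 54900000 to 75000000 reads per library. A gene was tested if its mean over the libraries was at least 1 FPKM (9873 genes), and was called at a limma p under 0.01 and an adjusted p under 0.05, which held for 27 genes or 0.273%.

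SP5 was far higher in sh-MFAP2 than in control. The gene (ENSG00000204335; GRCh38, chromosome 2 from 170715351 to 170718078, plus strand) has 2 exons in GENCODE 29. Its values were 33.1 FPKM (replicate 1) and 31.4 FPKM (replicate 2) after knockdown, whereas the controls had 1.89 FPKM (replicate 1) and 1.81 FPKM (replicate 2). The groups did not overlap and the replicates lay close together, with means of 32.3 ± 1.19 (SD, n = 2) and 1.85 ± 0.0519 FPKM (SD, n = 2). This was a 17.4-fold ratio of the FPKM means, and a difference of 3.54 on the log2(FPKM + 1) scale used below, which understates changes of genes with low values. Only 5 of the 9873 genes tested had a larger rise, and SP5 ranked as number 6. On the inferred depth, 4157 and 3553 reads lay behind the sh-MFAP2 values and 230 and 280 reads behind the control values. These reads were inferred and not recovered, and no count test was run. In bulk RNA, a rise in every cell and a larger share of cells with the gene on cannot be told apart.

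The difference was carried by 1 protein coding transcript. Of 2 SP5 transcripts listed, ENST00000375281 (2033 bases) had 33.6 and 31.9 FPKM after knockdown as opposed to 1.91 and 1.82 FPKM in the controls, and made up 93.6% to 99.95% of the summed transcript values. Neighbors within 100 kb showed no such difference in their values. LINC01124, a lincRNA on the opposite strand 784 bases upstream of SP5, was listed at 1.46 FPKM in the first control and at 0 in the other three libraries. ERICH2, 65708 bases away, was at 1.36 and 1.59 FPKM against 1.33 and 1.30 FPKM, and GAD1, which makes the neurotransmitter GABA, was at 4.56 and 4.94 FPKM against 5.07 and 4.51 FPKM. MYO3B, 60180 bases away, was at or below 0.0738 FPKM throughout. SP5 overlapped no other gene of the table.

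**Figure D1:**
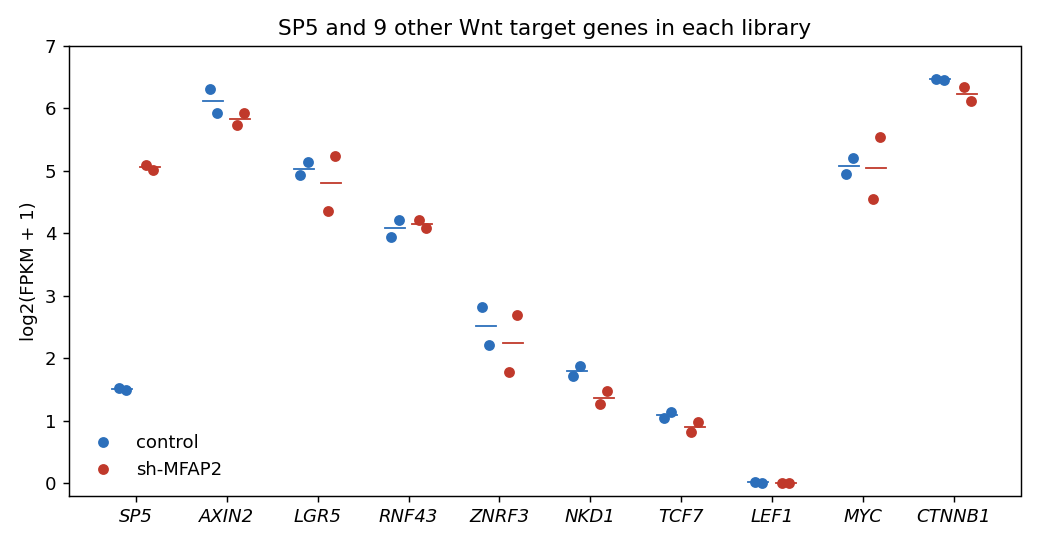
Level of each member in each library, as log2(FPKM + 1), with control in blue, sh-MFAP2 in red, replicate 1 at the left and replicate 2 at the right of each pair, and short lines at the group means. The SP5 points moved from below those of NKD1 in control to the height of LGR5 and MYC in sh-MFAP2, while for the other genes the groups lie close together.

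In control cells the members covered a wide range of levels. CTNNB1 was highest at 88.2 and 86.4 FPKM, followed by AXIN2 at 78.0 and 59.6 FPKM. MYC (29.7 and 36.0 FPKM) and LGR5 (29.4 and 34.2 FPKM) came next and overlapped each other, and RNF43 had 14.4 and 17.6 FPKM. ZNRF3, NKD1, SP5 and TCF7 then followed in this order without overlap, from 6.09 FPKM down to 1.05 FPKM, and LEF1 was last. In sh-MFAP2 cells, by contrast, the SP5 values fell within the range of LGR5 (19.6 and 36.9 FPKM) and of MYC (22.3 and 45.8 FPKM) and above those of RNF43 (17.5 and 16.0 FPKM).

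None of the other members tested was called. Of the 9 genes, 8 passed the filter on low values, all but LEF1, and 1 of the 8 (NKD1) had an unadjusted limma p under 0.05, beside 12.3% of all genes tested. In the mean of log2(FPKM + 1), 7 were lower and 1 (RNF43) was higher after knockdown. MYC was among the 7 at -0.03, but its FPKM mean was higher after knockdown (34.0 against 32.9 FPKM). Their median log2 fold change was -0.23, against -0.05 over all genes tested. For 0 of the 8 genes did both knockdown libraries lie above both controls, beside 17.5% of all genes tested. They lay below both controls for 3 (NKD1, TCF7 and CTNNB1), beside 31.4% of all genes tested. The adjusted p of the 8 genes ran from 0.395 to 0.980 in limma, which does not exclude a change, small or larger. The 95% intervals of their log2 fold changes reached down to -1.46 (ZNRF3) and up to 1.08 (MYC).

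**Figure D2:**
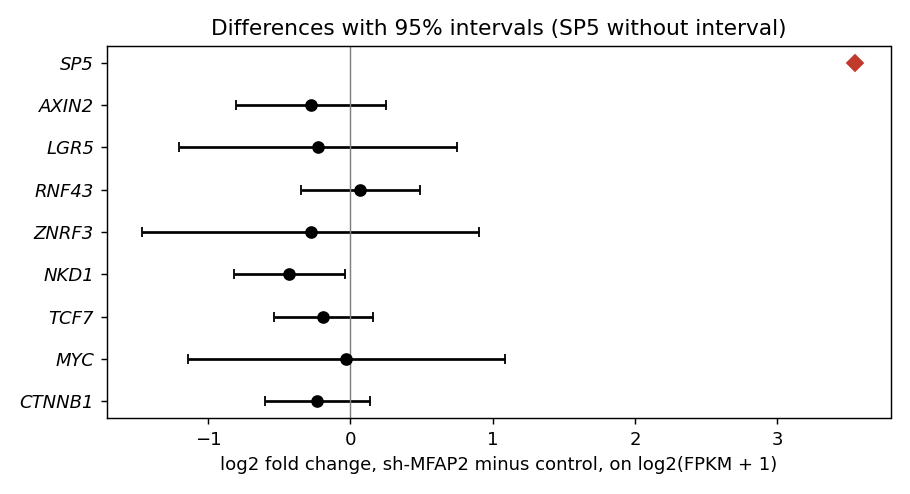
Log2 fold change of each member tested on log2(FPKM + 1), sh-MFAP2 minus control, with 95% intervals from limma as bars. SP5 is drawn at 3.54 without an interval because it was picked for its rise, and the highest upper limit of the other genes is 1.08 for MYC.

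Among the feedback inhibitors in the cytoplasm, AXIN2 was the most abundant. AXIN2 (chromosome 17 from 65528563 to 65561647, minus strand) was measured at 52.5 and 60.0 FPKM after knockdown and 78.0 and 59.6 FPKM in the controls. The groups overlapped narrowly, since the higher knockdown library was just above the lower control. AXIN2 thus had a log2 fold change of -0.28 (95% interval -0.80 to 0.25, adjusted p = 0.563 in limma). NKD1 (chromosome 16 from 50548330 to 50649249, plus strand) was measured at 1.40 and 1.79 FPKM after knockdown and 2.30 and 2.68 FPKM in the controls. Here the groups did not overlap, and the sh-MFAP2 mean was 64.1% of the control mean. Its log2 fold change of -0.43 (95% interval -0.82 to -0.04) did not pass after adjustment (adjusted p = 0.395, unadjusted p = 0.0392 in limma).

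Neither of the membrane ubiquitin ligases differed beyond the spread between replicates. RNF43 (chromosome 17 from 58352500 to 58417595, minus strand) was measured at 17.5 and 16.0 FPKM after knockdown and 14.4 and 17.6 FPKM in the controls, with both sh-MFAP2 values between the controls. Its log2 fold change was 0.07 (95% interval -0.35 to 0.49, adjusted p = 0.847 in limma). ZNRF3 (chromosome 22 from 28883592 to 29057487, plus strand) was measured at 2.42 and 5.49 FPKM after knockdown and 6.09 and 3.62 FPKM in the controls. Replicates of 1 group differed by more than the group means, and the interval was wide (log2 fold change -0.28, 95% interval -1.46 to 0.90, adjusted p = 0.782 in limma).

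LGR5 (chromosome 12 from 71439770 to 71586310, plus strand), the R-spondin receptor, was measured at 19.6 and 36.9 FPKM after knockdown and 29.4 and 34.2 FPKM in the controls. The sh-MFAP2 libraries lay on either side of the controls, so the log2 fold change of -0.23 (95% interval -1.21 to 0.75, adjusted p = 0.786 in limma) was within the spread between replicates. MYC, the transcription factor that drives growth and proliferation, had the same form, with 22.3 and 45.8 FPKM after knockdown and 29.7 and 36.0 FPKM in the controls. The log2 fold change of MYC was -0.03 (95% interval -1.14 to 1.08, adjusted p = 0.980 in limma), and in both groups replicate 2 was the higher one.

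Of the nuclear partners, CTNNB1 was the most abundant member. CTNNB1 (chromosome 3 from 41194741 to 41260096, plus strand) was measured at 80.2 and 68.4 FPKM after knockdown and 88.2 and 86.4 FPKM in the controls. The groups did not overlap, but the difference was small, at 85.1% of the control mean (log2 fold change -0.23, 95% interval -0.60 to 0.14, adjusted p = 0.510 in limma). TCF7 (chromosome 5 from 134114711 to 134151865, plus strand), which encodes TCF1, was measured at 0.760 and 0.978 FPKM after knockdown and 1.05 and 1.21 FPKM in the controls. With a mean of about 1 FPKM it only just passed the filter, and its log2 fold change was -0.19 (95% interval -0.54 to 0.16, adjusted p = 0.549 in limma). LEF1 (chromosome 4 from 108047545 to 108168956, minus strand) was listed at 0 and 0.00691 FPKM after knockdown, and the controls had 0.0128 and 0.00505 FPKM. These values stood for 0, 2.01, 4.01 and 2.01 reads on the inferred depth, about the floor of 3 reads, so LEF1 was not detectable above it and no fold change is given. Of the TCF family, TCF7L2 had the highest level, at 5.79 and 6.21 FPKM against 6.80 and 5.68 FPKM, while TCF7L1 was at or below 0.0307 FPKM.

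**Figure D3:**
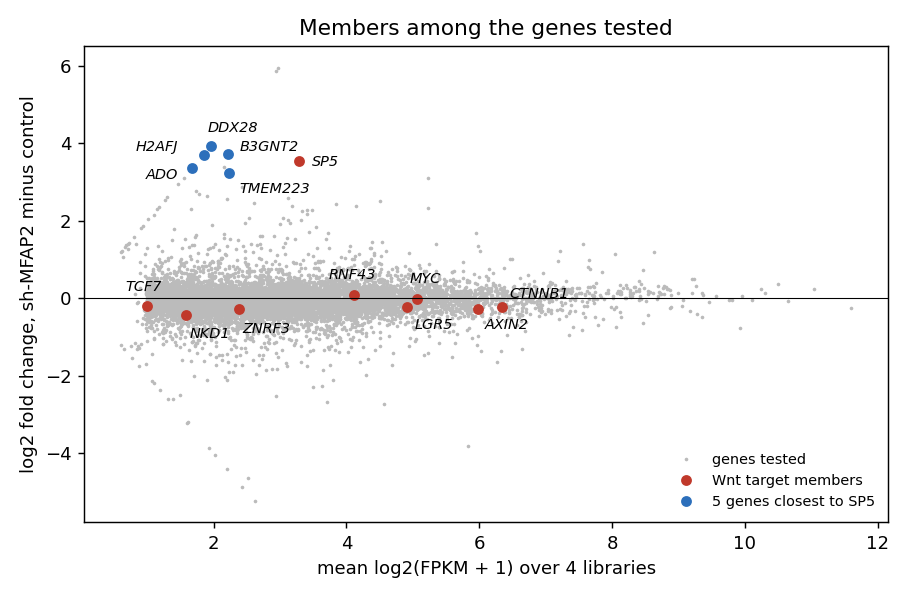
Log2 fold change (sh-MFAP2 minus control) against mean log2(FPKM + 1) over the 4 libraries for the genes tested, in gray, with the members in red and the 5 genes closest to SP5 in blue. SP5 stands at 3.54 with the blue genes, and the other members lie near 0 within the gray cloud.

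Transcript values were examined next, since a gene value can hide a change between transcripts. Of 93 transcripts listed for the 10 members, 28 of genes other than SP5 had a mean of at least 1 FPKM and none was called by limma (lowest adjusted p = 0.317), as was true of all 22312 transcripts tested. An unadjusted p under 0.05 was found for 5 of the 28, beside 7.64% of all transcripts tested: ENST00000618960 of AXIN2, ENST00000536515 of LGR5, ENST00000584437 and ENST00000580014 of RNF43, and ENST00000453024 of CTNNB1. Each of the 5 was lower in both knockdown libraries than in both controls, but a choice by p favors groups without overlap. Of the 28, 11 were lower in both knockdown libraries than in both controls, and 1 was higher. These counts were not set beside those of all transcripts tested, so no shared fall can be read from them. Transcripts of a gene share most of their sequence, so the values depend on how the authors' program divided the reads among them.

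The AXIN2 transcript ENST00000618960 (4060 bases) stood at 0 in both knockdown libraries and at 7.24 and 21.5 FPKM in the controls (adjusted p = 0.317 in limma). In contrast, the main transcript ENST00000307078 (4259 bases) was measured at 40.4 and 48.6 FPKM after knockdown and 57.9 and 34.6 FPKM in the controls, with overlapping groups. In LGR5, 1 library stood apart: ENST00000266674 (4611 bases) was at 35.5 FPKM in sh-MFAP2 replicate 2 and at 3.63, 7.19 and 9.05 FPKM in the other three libraries. It made up 76.3% of the LGR5 sum in that library and 11.2% to 16.2% elsewhere, while ENST00000536515 was lowest there, at 3.50 FPKM.

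Within RNF43 the transcripts differed in opposite directions, and none passed the test. The main transcript ENST00000407977 (5516 bases) was measured at 18.4 and 14.4 FPKM after knockdown and 8.94 and 12.5 FPKM in the controls. Conversely, ENST00000584437 (5575 bases) was measured at 4.19 and 5.19 FPKM after knockdown and 8.10 and 8.06 FPKM in the controls. The groups did not overlap for either (adjusted p = 0.68 and 0.60 in limma). The share of the main transcript was 71.9% and 58.7% in sh-MFAP2 and 37.9% and 42.5% in control. MYC transcripts followed the replicate number and not the group: ENST00000377970 made up 24.8% and 28.7% of the MYC sum in the libraries numbered 1 and 79.1% and 75.9% in those numbered 2. This transcript is 2351 bases long, and ENST00000613283 and ENST00000621592, which took up most of the difference in the libraries numbered 1, are 2364 and 2366 bases long. In CTNNB1 the main transcript ENST00000396185 made up 68.5% to 77.0% of the sum in every library.

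**Figure D4:**
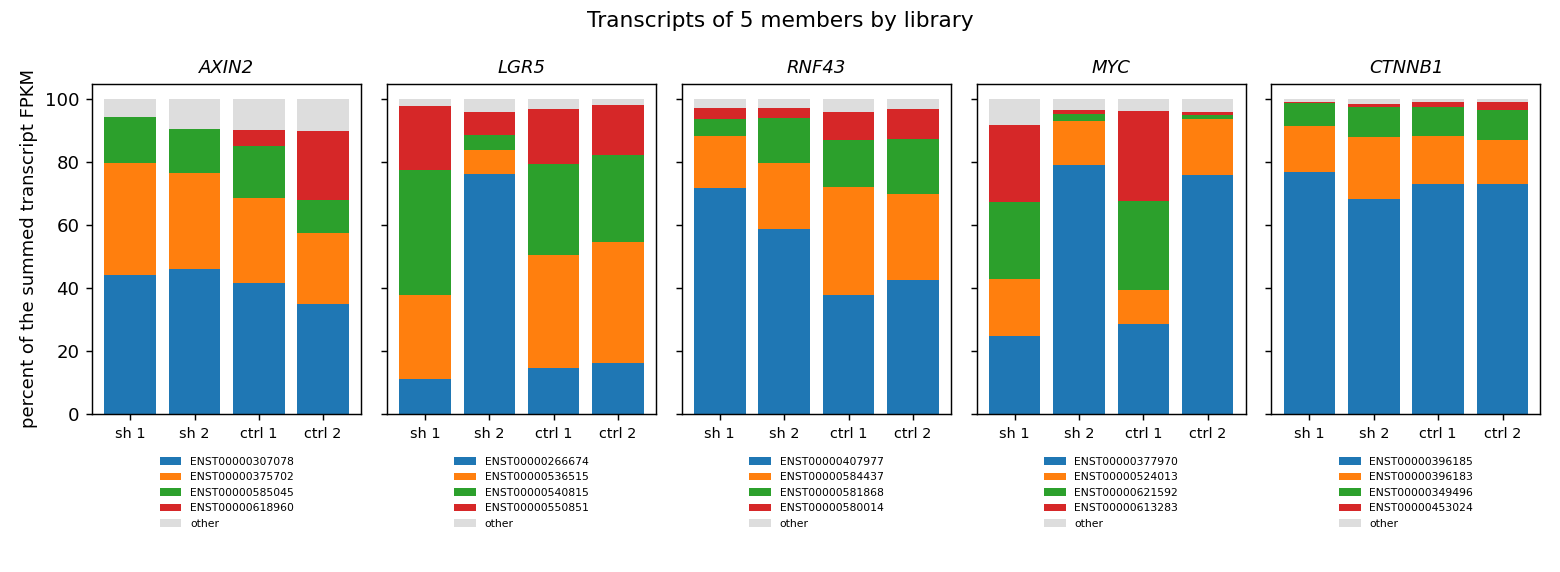
Percent of the summed transcript FPKM taken by each of the 4 most abundant transcripts (colors) and by all others (gray) in the 4 libraries (sh, sh-MFAP2; ctrl, control), for 5 members. LGR5 is set apart by sh-MFAP2 replicate 2, MYC splits by replicate number, and ENST00000618960 of AXIN2 (red) is above 0 in the controls alone.

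The rest of the pathway was examined in 8 further lists with 160 genes, of which 86 passed the filter. None of the 86 was called by limma. An unadjusted p under 0.05 was found for 12 (14.0%, beside 12.3% of all genes tested). Of these, 2 were higher after knockdown and 10 were lower, and of the 1214 such genes among all those tested, 384 were higher (3.89% of all genes tested) and 830 were lower (8.41%). Both knockdown libraries lay above both controls for 14 genes (16.3%, beside 17.5%) and below both for 29 (33.7%, beside 31.4%), and the median log2 fold change was -0.08 against -0.05 over all genes. As a whole, these shares were thus close to those of the genes at large.

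Of the ligands and their secretion genes, 5 of 21 passed the filter, and 4 of the 5 (PORCN, WNT5B, WNT10B and WNT3) had both sh-MFAP2 values above both controls, beside 17.5% of all genes tested. None of the 5 was called. PORCN, the acyltransferase that makes Wnt proteins active, had 14.9 and 11.04 FPKM against 8.79 and 9.87 FPKM (adjusted p = 0.440 in limma). WNT5B had 2.84 and 1.84 FPKM against 1.80 and 0.595 FPKM, and WNT10B had 1.66 and 1.49 FPKM against 1.21 and 1.18 FPKM. WLS, the carrier of Wnt proteins to the surface, was on the other side, with 16.0 and 16.2 FPKM against 18.7 and 18.0 FPKM. None of these differences passed the adjusted test (lowest adjusted p = 0.440 in limma).

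Among receptors and agonists, 9 of 21 genes passed the filter, with a median log2 fold change of -0.17. LGR4, a relative of LGR5, was measured at 6.89 and 8.17 FPKM after knockdown and 10.6 and 35.1 FPKM in the controls (adjusted p = 0.467 in limma), so that the size of the difference was set by control replicate 2. FZD3 had 0.777 and 1.53 FPKM against 1.72 and 1.55 FPKM. Of the inhibitors at the surface, 5 of 18 passed the filter. DKK1, a secreted inhibitor of LRP5 and LRP6 and itself a beta-catenin target, was abundant at 86.4 and 94.3 FPKM against 114 and 103 FPKM (adjusted p = 0.462 in limma). TRABD2A, a protease that inactivates Wnt proteins, had 3.02 and 3.39 FPKM against 2.79 and 2.61 FPKM. NOTUM, an enzyme with the same role and a feedback target, had 2.02 and 2.21 FPKM against 2.12 and 2.01 FPKM, with overlapping groups.

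The destruction complex and its transducers had 19 of 24 genes tested, with a higher mean after knockdown for 5 and a lower mean for 14 (median log2 fold change -0.05). Both knockdown libraries lay above both controls for 4 (21.1%, beside 17.5% of all genes tested) and below both for 7 (36.8%, beside 31.4%). GSK3A, a kinase of the complex, had 32.8 and 19.7 FPKM after knockdown, compared with 14.2 and 18.0 FPKM in the controls, and CSNK1G2 had 22.0 and 20.2 FPKM against 16.5 and 13.0 FPKM. FBXW11, a receptor of the ubiquitin ligase that takes up marked beta-catenin, had 0.575 and 2.72 FPKM against 3.56 and 5.43 FPKM. TNKS2, a tankyrase that promotes degradation of AXIN, had 4.88 and 5.03 FPKM against 6.61 and 12.5 FPKM. An unadjusted limma p under 0.05 was found for 4 of the 19 genes (21.1%, beside 12.3% of all genes tested). Of these, CSNK1G2 was higher, and CSNK1A1, CSNK1G3 and AMER1 were lower. CSNK1A1 had 15.7 and 17.2 FPKM against 22.8 and 24.0 FPKM, and CSNK1G3 had 4.44 and 4.21 FPKM against 6.21 and 6.39 FPKM. The lowest adjusted p of the list was 0.337 in limma (CSNK1G3). APC was below the filter, at 0.261 to 0.473 FPKM. Of the nuclear factors, 17 of 20 were tested, with a higher mean for 4 and a lower mean for 13. Here 1 gene (5.88%, beside 17.5% of all genes tested) lay above both controls in both knockdown libraries. Below both controls lay 7 (41.2%, beside 31.4%). CHD8, a chromatin remodeler that binds beta-catenin, had 12.04 and 13.1 FPKM against 15.1 and 16.3 FPKM. BCL9L, which links beta-catenin to its coactivators, had 6.26 and 5.83 FPKM against 6.83 and 7.74 FPKM. HMGXB4 had 1.66 and 2.55 FPKM against 3.63 and 2.66 FPKM, and CTNNBIP1, an inhibitor that keeps beta-catenin from TCF factors, had 1.67 and 2.61 FPKM against 1.62 and 1.22 FPKM. The lowest adjusted p here was 0.415 in limma.

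No further beta-catenin target was called. Of 36 genes, 21 passed the filter, of which 10 had a higher and 11 a lower mean after knockdown (median log2 fold change -0.05). For 4 of the 21 (19.0%, beside 17.5% of all genes tested), both knockdown libraries lay above both controls. For 7 (33.3%, beside 31.4%), they lay below both. CCND1, which encodes cyclin D1, had 76.2 and 20.1 FPKM after knockdown, compared with 94.6 and 114 FPKM in the controls (log2 fold change -1.37, adjusted p = 0.481 in limma), a difference set mainly by sh-MFAP2 replicate 2. TNFRSF19, a receptor also known as TROY, had 11.3 and 6.01 FPKM against 18.6 and 16.3 FPKM (adjusted p = 0.394 in limma). EPHB2, a receptor that positions cells in the intestinal crypt, had 2.29 and 2.01 FPKM against 3.11 and 3.58 FPKM (adjusted p = 0.368 in limma). CYP1A1, an enzyme of xenobiotic metabolism, was the exception in direction among the named targets, with 5.99 and 5.48 FPKM against 3.82 and 3.44 FPKM (log2 fold change 0.54, adjusted p = 0.330 in limma).

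Junction proteins share beta-catenin with the pathway, and 6 of 13 were tested. CTNND1, which encodes p120-catenin, had 9.97 and 8.33 FPKM after knockdown, compared with 15.5 and 16.3 FPKM in the controls, a log2 fold change of -0.74 (95% interval -1.11 to -0.37, adjusted p = 0.302 in limma). PKP2, a plakophilin of desmosomes, had 12.5 and 16.5 FPKM against 23.2 and 22.5 FPKM (adjusted p = 0.371 in limma). Of the other SP factors, which bind the same GC-rich boxes as SP5, 4 of 7 were tested. SP3 had 4.45 and 4.93 FPKM after knockdown, compared with 9.83 and 10.8 FPKM in the controls, that is 45.4% of the control mean. Its log2 fold change of -0.99 (95% interval -1.33 to -0.66) gave the lowest adjusted p of the 86 genes, which did not pass (adjusted p = 0.161 in limma). SP1 had 1.46 and 1.83 FPKM against 2.63 and 3.22 FPKM (log2 fold change -0.57, adjusted p = 0.362 in limma). Both were thus on the side opposite to SP5. Their groups did not overlap, but only genes without overlap were named by rule, and 31.4% of all genes tested lay below both controls. The groups overlapped for the other SP factors tested, SP2 (log2 fold change 0.27) and SP4 (-0.18).

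**Figure D5:**
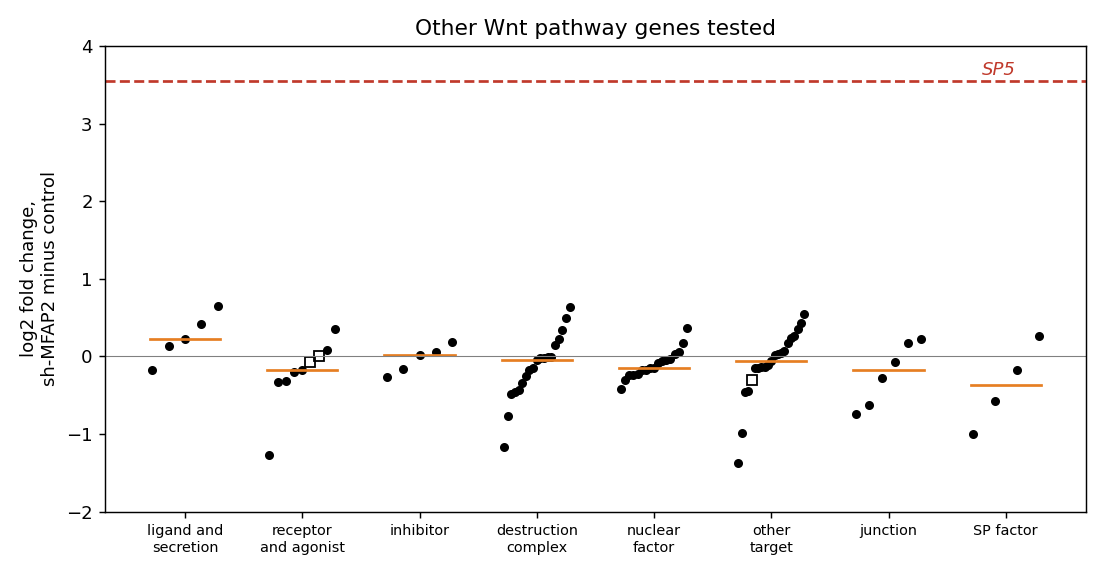
Log2 fold change (sh-MFAP2 minus control) of the 86 other pathway genes tested, by list, with list medians as orange lines and SP5 as a dashed line at 3.54. Open squares are FZD2, FZD7 and SOX4, which were at 0 in some libraries, and the genes run from -1.37 (CCND1) to 0.65 (WNT5B).

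SP5 was one of 203 genes tested (2.06%) whose lowest library was under 10% of the highest while the highest was at least 5 FPKM, and it was the only such member. In 27 of the 203, as in SP5, both libraries of one group were low and both of the other were not. Of these 27, 16 were higher after knockdown and 11 were lower. Genes with a single exon made up 31.7% of the 203 (64 of the 202 with an exon number) and 1.39% of all genes tested. They were 15 of the 27 that differed by group. SP5 has 2 exons. By transcript composition SP5 was also extreme: its main transcript had 66.2% GC, more than 97.6% of the genes tested, whereas the main transcripts of the other members tested had 43.8% to 58.8%. The part of exon number and GC content in the rise of SP5 was not tested.

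The genes whose pattern was closest to that of SP5, by the Euclidean distance between the mean-centered log2(FPKM + 1) values over the 4 libraries, were ADO, B3GNT2, DDX28, H2AFJ and TMEM223. ADO, a thiol dioxygenase gene, was closest at a distance of 0.185, with 9.60 and 8.98 FPKM in sh-MFAP2 and listed at 0 in both controls. B3GNT2, a glycosyltransferase, followed at 0.281, with 15.6 and 16.2 FPKM against 0.178 and 0.403 FPKM. DDX28, a mitochondrial RNA helicase (0.389), H2AFJ, a histone variant (0.391), and TMEM223 (0.464) completed the 5. ADO and DDX28 have a single exon. Genes this close to SP5 at such levels had to fall among the 203 described above, so that their place there is no separate observation. None belongs to the Wnt lists. The control level of SP5, at 1.81 to 1.89 FPKM, was above the highest control value among these genes, 0.681 FPKM in TMEM223.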

How the data were processed

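The 4 AGS libraries were grouped by their labels. The authors deposited a gene and a transcript table of values scaled by length and library size, made from reads on hg38 (submitters' processing notes) and taken here as FPKM. The tables name no unit, and the aligner, counter and annotation are not given in the sources used here. The study's text names a bead array in 1 place, and the supplementary section that gives its test is headed as microarray analysis. Low values here, however, fell on steps of reads. The study's methods name log2 transformation and a random variance model with p under 0.01 and adjusted p under 0.05, so limma's moderated test with a variance trend (limma 3.58.1, R 4.3.3) was used on log2(FPKM + 1) for genes averaging 1 FPKM or more, with Benjamini-Hochberg adjustment over all 9873 genes. The fit was tested on simulated data.

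Members and lists were chosen with earlier results of these data known. Other genes were named by rule: in each list up to 4 with the largest non-overlapping difference, and the 5 closest to SP5. NOTUM, WNT3, TCF7L1, TCF7L2, APC, CSNK1A1, CSNK1G3, AMER1, SP2, SP4 and ENST00000453024 were named after their values were seen. GENCODE 29 held 92.5% of the table's identifiers and was the source of coordinates, exons and transcript GC. Depth was inferred from single-transcript genes over 1000 bases, where 58.3% to 59.7% of low values fell within 0.05 of a whole number of reads (10% by chance), so reads were not recovered and no count test was run. Intervals for single values cannot be given. Alternatives covered filters, pseudocount, scaling, variance trend, replicate block, summed transcripts and leaving out each library. Further software was Python 3.11.15 with pandas 2.3.3, numpy 2.4.6 and matplotlib 3.10.9.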

Additional observations from a re-analysis of the deposited data

How the results depend on the processing

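SP5 kept its direction under all 12 alternatives, which is no separate support, since it was picked for its rise in these libraries. Its log2 fold change was between 3.51 and 3.58 with each library left out and 4.05 with a pseudocount of 0.1. Changes of filter, variance trend and replicate block cannot alter it, and it stayed at 3.54. No other member and no other pathway gene was called under any alternative run. AXIN2, NKD1, TCF7 and CTNNB1 kept their direction. With each library left out, AXIN2 ran from -0.47 (without control replicate 2) to -0.08 (without control replicate 1), CTNNB1 from -0.35 (without sh-MFAP2 replicate 1) to -0.12 (without sh-MFAP2 replicate 2), TCF7 from -0.28 (without sh-MFAP2 replicate 2) to -0.11 (without sh-MFAP2 replicate 1) and NKD1 from -0.54 to -0.32. LGR5 ran from -0.67 to 0.21, RNF43 from -0.067 to 0.21, ZNRF3 from -0.74 to 0.18 and MYC from -0.53 to 0.47, reversing without sh-MFAP2 replicate 1 (LGR5, ZNRF3, MYC), control replicate 1 (RNF43, ZNRF3) or control replicate 2 (MYC). RNF43 also reversed to -0.074 as the sum of its transcripts, and MYC to 0.039 with scaling by median of ratios. The 27 calls over all genes became 6 when unfiltered, 9 when the filter was raised to 5 FPKM, and 0 with any library left out, where the lone library is assumed to vary like the other group. They became 0 with the replicate number as a block (722 genes at an unadjusted p under 0.05 in limma). Deviations of same-numbered libraries correlated at -0.0572, so no pairing by number was seen over the genes as a whole. Single features, such as the MYC transcripts and FZD2, did follow the number, and a pairing limited to some genes was not tested. The count of transcripts called went from 0 to 1 under the higher filter, where ZNRF3, NKD1 and TCF7 gave no value. The cause was not tested.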

Other observations

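Some genes of the Wnt lists, singled out after their values were seen, were listed at 0 in some libraries and expressed in others. FZD2, a single-exon Frizzled receptor gene, had 7.49 FPKM in sh-MFAP2 replicate 1 and 7.48 FPKM in control replicate 1 and was at 0 in both libraries numbered 2. FZD7, also of a single exon, had 11.7 FPKM in sh-MFAP2 replicate 1 and 13.1 FPKM in control replicate 2 and was at 0 in the other two. SOX4, a single-exon transcription factor gene, followed the same libraries as FZD7, with 9.42 and 14.9 FPKM. FZD5, a receptor with 2 exons, had 3.31 FPKM in sh-MFAP2 replicate 1 and at most 0.146 FPKM elsewhere. FZD2 thus differed by replicate number, FZD7 and SOX4 were each above 0 in 1 library of each group, and FZD5 was high in a single library. The group differences of FZD2, FZD7 and SOX4 (log2 fold changes 0.00, -0.08 and -0.31) were far inside their spread.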
